A study of Mus musculus with 28 samples.

Results

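The genes described here are the 2 corticosteroid receptors of the mouse pituitary, the 2 enzymes that convert glucocorticoids inside cells, and 6 genes that glucocorticoids are known to induce. They were chosen by name as Nr3c1, Nr3c2, Hsd11b1, Hsd11b2, Fkbp5, Tsc22d3, Sgk1, Zbtb16, Klf9 and Cdkn1a, which are 10 of the 32594 genes of the count table. Glucocorticoids from the adrenal gland act through the glucocorticoid receptor and the mineralocorticoid receptor, which are held by chaperones until hormone binds and then act on genes in the nucleus. In the pituitary the glucocorticoid receptor is known for negative feedback, in which corticosterone lowers the synthesis and release of adrenocorticotropic hormone by corticotropes. Several induced genes are widely read as a record of recent glucocorticoid exposure, and Fkbp5 in turn restrains the receptor.

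The study asked how a night of paradoxical sleep deprivation (PSD) alters the response of the pituitary to a later stressor. Whole pituitary glands of C57BL/6J mice, 8 weeks old on arrival, were sequenced 1 by 1, from 16 females and 12 males. Home cage controls were 4 females and 4 males, restrained mice 4 females and 2 males, PSD mice 4 females and 3 males, and PSD + restraint mice 4 females and 3 males. PSD lasted 12 h on small platforms above water, restraint lasted 20 min in a tube, and tissue was taken 18 h after PSD ended and 10 min after restraint ended. All mice, the controls included, had been adapted to the tanks on earlier days. Cage mates shared a tank, so for PSD mice a tank and the treatment cannot be told apart. Each mouse is its own sample, and the 3 treated groups were compared with the same controls.

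Totals ran from 14024465 to 52948531 counts per mouse, and levels are given below as CPM, the counts of a gene scaled to a common library total. Pairs of mice within a group, 37 in all, each differed beyond what counting error gives, with at least 7.48 chi-square units per degree of freedom. A whole gland pools all of its cell types, so fewer cells of a type and less RNA per cell cannot be told apart. Defining pituitary markers were abundant in every mouse, where the lowest values were 59892 CPM for Gh, 30866 CPM for Prl and 11423 CPM for Pomc.

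Some libraries stood apart in their markers. In male control mouse 1 the summed level of 4 corticotrope markers, which Pomc dominates, was 11514 CPM, against 36676 to 164633 CPM in the other mice. The 7 neurointermediate lobe markers summed to 381 CPM in the same mouse, against at least 1177 CPM elsewhere. In restrained female 3 the 3 adipocyte markers Adipoq, Plin1 and Lep summed to 70.9 CPM, against at most 0.156 CPM in any other mouse. The 6 forebrain markers summed to 122 CPM in PSD female 1 and 98.7 CPM in PSD + restraint female 4, against a female median of 43.0 CPM. Across all mice endothelial markers summed to 102 to 142 CPM and macrophage markers to 102 to 152 CPM, the latter with a difference between female groups that is given below.

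The receptors bind a pair of inverted half-sites, and Sgk1, a kinase that raises sodium transport, is a textbook target with such a pair near a start of transcription. Upstream windows of 250 bases from RefSeq (GRCm38.p6) were found for 7 of the 10 genes, in 15 windows, since some genes have several starts. The full element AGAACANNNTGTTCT, which is its own reverse complement, was searched together with its half-site, AGAACA or TGTTCT on the other strand. The full element occurred in 3 of 32851 windows of all genes (0.00913%), and 1 of these 3 belonged to Sgk1. A half-site occurred in 16.1% of all windows. Shown here are the Sgk1 window with the full element, the 113 bases ahead of the most upstream Tsc22d3 exon, which hold a half-site, and the Fkbp5 window, the gene with the largest sex difference, in which neither was found. Each runs 5′ to 3′ on the strand of its gene, and capitals mark half-sites and the full element, which contains 2 of the 3 half-sites of the Sgk1 window.
Sgk1, chr10:21993640-21993889, plus strand: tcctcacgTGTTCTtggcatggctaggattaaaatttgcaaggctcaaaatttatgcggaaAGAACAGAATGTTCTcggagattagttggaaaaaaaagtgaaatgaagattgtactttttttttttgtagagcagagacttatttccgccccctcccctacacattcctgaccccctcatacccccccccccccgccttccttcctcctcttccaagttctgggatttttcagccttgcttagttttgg
Tsc22d3, chrX:140600660-140600772, minus strand: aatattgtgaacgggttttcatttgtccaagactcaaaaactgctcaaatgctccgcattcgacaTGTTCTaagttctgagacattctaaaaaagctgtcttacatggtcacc
Fkbp5, chr17:28486150-28486399, minus strand: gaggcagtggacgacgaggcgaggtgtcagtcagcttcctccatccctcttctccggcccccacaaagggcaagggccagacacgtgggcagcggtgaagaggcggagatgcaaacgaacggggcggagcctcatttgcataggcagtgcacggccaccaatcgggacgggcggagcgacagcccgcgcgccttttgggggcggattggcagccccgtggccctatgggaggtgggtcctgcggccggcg
The full element of Sgk1 began 189 bases ahead of that start. These matches describe the letters of the windows, and no binding was measured here.

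Per kilobase of exon, with all annotated exons of a gene merged, Tsc22d3 stood highest in both sexes, at 12.7 ± 2.77 CPM per kb in females and 14.5 ± 1.66 in males (SD, n = 16 and 12). Nr3c1 followed at 9.11 ± 1.02 in females and 11.7 ± 2.41 in males, beside Klf9 at 9.10 ± 1.05 and 9.40 ± 1.43. Fkbp5 was at 4.76 ± 0.926 CPM per kb in females and 9.17 ± 0.756 in males, and so changed its place in the order with sex. Nr3c2 stood at 4.06 ± 0.587 and 5.67 ± 0.789 CPM per kb, below Nr3c1 in both sexes, and Hsd11b1 at 6.22 ± 1.21 and 6.03 ± 0.246. At the bottom was Hsd11b2, at 0.0756 ± 0.0438 CPM per kb in females and 0.102 ± 0.0404 in males. Within a sex, Nr3c1 and Klf9, or Nr3c2 and Sgk1 (4.09 ± 0.893 and 4.96 ± 0.781), lay within their spread of each other.

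**Figure D1:**
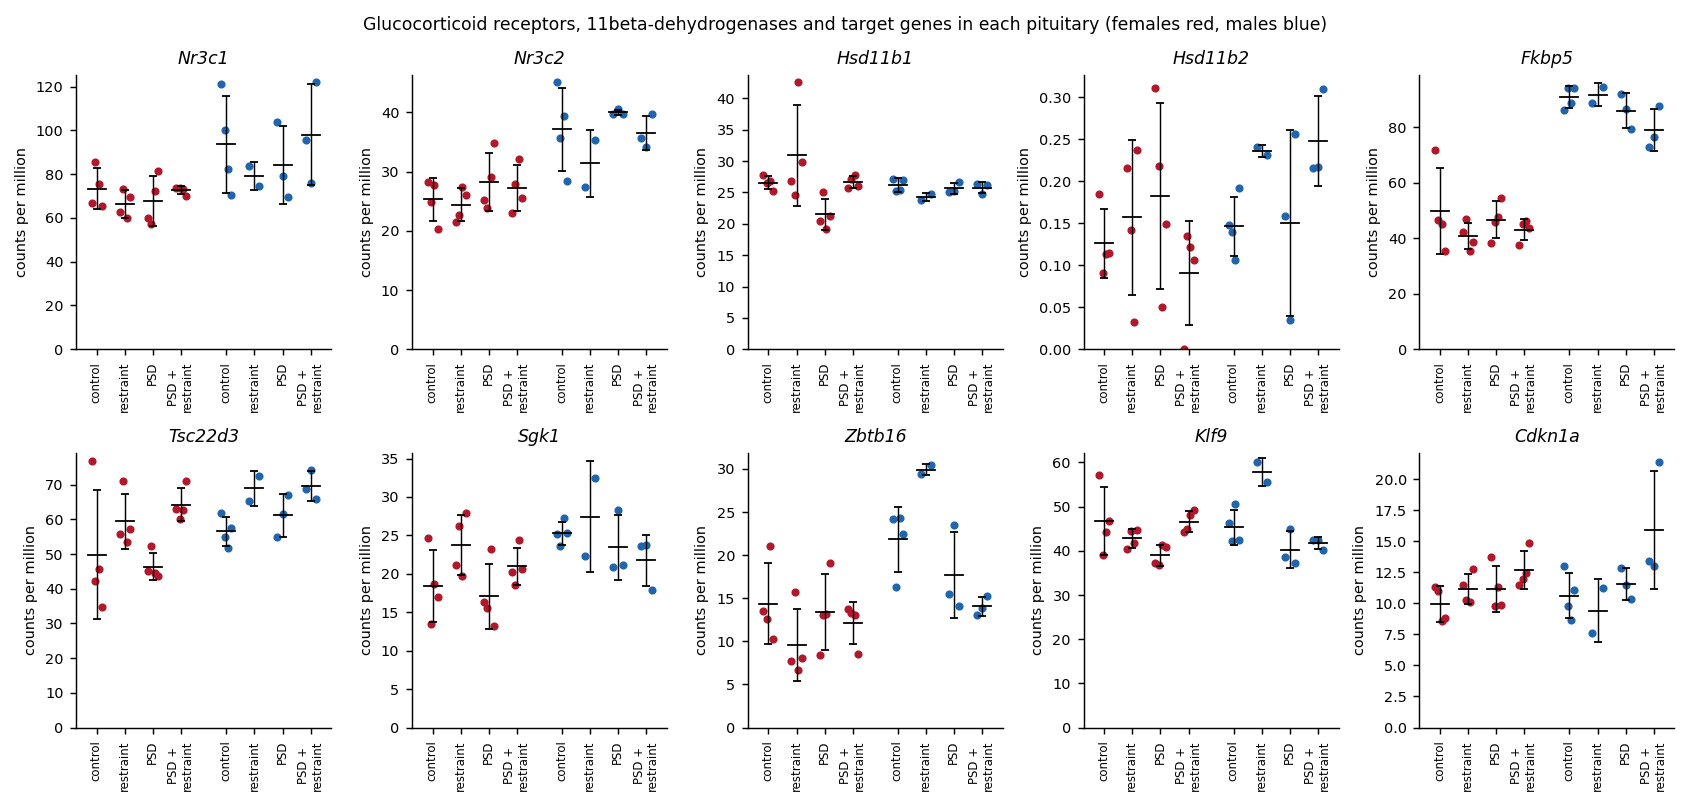
CPM of the 10 genes in every pituitary, females in red and males in blue, by treatment; each panel has its own axis from 0, lines mark group means and error bars the SD (n = 4, 4, 4 and 4 females, 4, 2, 3 and 3 males). Fkbp5 is lower in all 16 females than in all 12 males, and female control mouse 1 is the highest female for Fkbp5, Tsc22d3 and Klf9.

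Restraint, PSD and their combination were first compared with controls within each sex. None of the 9 tested genes was called in females or in males in any of these comparisons, where a call needs an adjusted p no higher than 0.05 and a change of 1.25-fold or more. Over all mice, with sex in the model, Cdkn1a and Tsc22d3 were higher after PSD + restraint and no gene of the 10 was called after restraint or PSD alone. Hsd11b2 had 0 to 11 counts per mouse, missed the filter on low counts within each sex and was tested only over all mice.

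These counts stand beside a low background. Restraint called 0.543% of genes in females and 0.296% in males, PSD 0.0277% and 0.00547%, and PSD + restraint 2.2% and 2.56%. Restraint given after PSD, compared with PSD alone, called 0.941% in females and 0.285% in males. PSD ahead of restraint, compared with restraint alone, called 0.0332% in females and 0.00547% in males. Over all mice the shares were 1.14% for restraint, 0.671% for PSD, 5.46% for PSD + restraint (4.1% called higher), 2.01% for restraint within PSD and 0.0951% for PSD within restraint. The interaction of PSD with restraint, with edgeR, called 0% in females, in males and over all mice, with 766, 702 and 743 genes at unadjusted p-values below 0.05. The median log2 fold change of the 10 genes after PSD + restraint was 0.02 over all mice, beside 0.00 for all 18936 genes.

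Nr3c1, the glucocorticoid receptor (chromosome 18, 39410545 to 39519421), was not called in any treatment comparison. In females it ranged from 57.2 to 85.6 CPM with a median of 71.0 CPM, and in males from 69.7 to 122 CPM with a median of 83.1 CPM. The log2 fold change after PSD + restraint was 0.00 ± 0.11 (SE) in females, 0.07 ± 0.19 in males and 0.03 ± 0.11 over all mice. After restraint alone it was -0.13 ± 0.11 in females and -0.24 ± 0.22 in males. The spread was wider in males, where control mouse 1 and PSD + restraint mouse 3 stood at 121 and 122 CPM and the other males at 104 CPM or lower.

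Nr3c2, the mineralocorticoid receptor, which binds corticosterone with higher affinity (chromosome 8, 76899442 to 77245012), also gave no call. Female groups averaged between 24.4 ± 2.78 CPM (SD, n = 4) in restrained mice and 28.2 ± 4.91 CPM (n = 4) in PSD mice. Male groups averaged between 31.4 ± 5.67 CPM (n = 2) in restrained mice and 40.0 ± 0.472 CPM (n = 3) in PSD mice. Restrained mice were thus the lowest group and PSD mice the highest in both sexes, by differences within the spread of the mice. PSD within restraint gave 0.18 ± 0.10 (SE) over all mice with an adjusted p of 0.45.

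Hsd11b1, the enzyme that regenerates active corticosterone from its inert ketone (chromosome 1, 193221634 to 193264075), varied little among males, from 23.8 to 27.2 CPM. Among females, PSD mice held 20.5, 25.1, 19.2 and 21.3 CPM, while controls held 27.8, 26.5, 26.8 and 25.3 CPM. The PSD females thus lay below all female controls, narrowly so at 25.1 against 25.3 CPM, a separation whose share among all genes was not counted. PSD + restraint females were back at 25.7, 27.1, 27.8 and 25.96 CPM. The PSD difference in females was -0.30 ± 0.13 (SE) on the log2 scale with an adjusted p of 0.227, and was not called. Restrained females held 26.8, 24.6, 42.6 and 29.8 CPM, the highest being mouse 3, the library with the adipocyte markers. Without that mouse, restraint gave 0.03 ± 0.08 in females in place of 0.22 ± 0.13, and PSD gave the same -0.30 with an SE of 0.08 and an adjusted p of 0.0968. Hsd11b1 is abundant in fat, and the part of adipose RNA in that mouse's value was not tested.

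Hsd11b2, which inactivates corticosterone and shields the mineralocorticoid receptor in kidney (chromosome 8, 105518755 to 105523988), was close to the limit of detection. Females ranged from 0 to 0.312 CPM and males from 0.0351 to 0.31 CPM. No difference was detectable at this depth, and the standard error of its log2 fold change after PSD + restraint over all mice was 0.41.

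Tsc22d3, which encodes the anti-inflammatory leucine zipper protein GILZ (chromosome X, 140539528 to 140600659), rose after PSD + restraint in the model over all mice. Female controls held 76.9, 42.1, 45.6 and 34.7 CPM, and restrained females 55.9, 71.1, 53.6 and 57.1 CPM. PSD females held 45.0, 52.2, 44.5 and 43.7 CPM, and PSD + restraint females 63.1, 60.2, 62.7 and 71.2 CPM. Control mouse 1 lay above all restrained females. Apart from that mouse, every restrained female lay above every unrestrained female, with or without PSD. The share of all genes with such a pattern was not counted. Male controls held 61.9, 54.8, 51.9 and 57.5 CPM, restrained males 65.4 and 72.5 CPM, PSD males 54.8, 61.5 and 67.1 CPM, and PSD + restraint males 68.7, 74.3 and 65.9 CPM. In males, too, both restrained groups lay above all controls, while PSD mouse 3 overlapped them.

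Its increase there was 0.34 ± 0.11 (SE) on the log2 scale after PSD + restraint (adjusted p = 0.0367). Restraint alone gave 0.27 ± 0.11 (adjusted p = 0.336) and restraint within PSD 0.35 ± 0.11 (adjusted p = 0.0922), and PSD alone gave 0.00 ± 0.11. Within each sex the difference after PSD + restraint was of like size, 0.37 ± 0.18 in females and 0.30 ± 0.08 in males (adjusted p = 0.247 and 0.0638). That call was lost when any 1 of 11 of the 28 mice was left out, namely female controls 2, 3 and 4, PSD + restraint females 1, 3 and 4, male controls 2, 3 and 4, or PSD + restraint males 1 and 2. The value then lay between 0.28 and 0.36, with an adjusted p of 0.051 to 0.086. With DESeq2 the shrunken value was 0.29 (adjusted p = 0.0172), under the fold threshold. Without female control mouse 1 the differences in females grew to 0.54 ± 0.11 for restraint and 0.65 ± 0.11 for PSD + restraint. Restraint within PSD stayed at 0.47 with a smaller SE of 0.10, and all 3 were called (adjusted p = 0.0465, 0.00734 and 0.0346). Over all mice without it, restraint gave 0.42 ± 0.08 and restraint within PSD 0.35 ± 0.08, both called (adjusted p = 0.00419 and 0.00889). Without male control mouse 1, PSD + restraint was called in males, at 0.35 ± 0.08 (adjusted p = 0.0354). Each of these mice held the highest Tsc22d3 value of its control group. Leaving it out raises a difference from controls by construction. Restraint within PSD uses no controls, and its calls came with a smaller SE at nearly the same value. No conclusion is drawn from any of these calls.

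Female control mouse 1 was high in more of these genes. It was the highest of the 4 female controls for 8 of the 10 genes and for 19 of 26 further glucocorticoid-induced genes, against 28.5% of all genes tested. Its corticotrope markers, mostly Pomc, summed to 68297 CPM, above the 36676 to 49662 CPM of the other 3 controls. Its neurointermediate lobe markers summed to 1880 CPM, against 1234 to 1445 CPM in those controls. What set this mouse apart was not tested.

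Cdkn1a, which encodes the cell cycle inhibitor p21 and is induced by p53 as well as by glucocorticoids (chromosome 17, 29090976 to 29100727), gave the other call. Female controls held 11.4, 10.99, 8.55 and 8.84 CPM, and PSD + restraint females 11.5, 12.0, 12.5 and 14.9 CPM. Male controls held 12.97, 9.76, 8.70 and 11.1 CPM, and PSD + restraint males 13.4, 12.97 and 21.4 CPM. The PSD + restraint females lay just above the controls, and in males PSD + restraint mouse 2 and control mouse 1 met at 12.97 CPM. How many of all genes separate these female groups in this way was not counted. Over all mice Cdkn1a rose by 0.45 ± 0.12 (SE) on the log2 scale (adjusted p = 0.0162), and it kept its call with each mouse left out in turn, at 0.33 to 0.50. The smaller values came with restraint alone, 0.06 ± 0.13, and PSD alone, 0.15 ± 0.12, neither called. The difference was 0.36 ± 0.13 in females and 0.57 ± 0.19 in males, with an adjusted p of 0.142 in both.

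An antisense transcript shares exon bases with Cdkn1a, and another with Nr3c2. The library kit kept strand, but the strand setting of the counting is not given in the sources used here, so reads of these pairs may not be separated.

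Both calls came in a comparison in which markers of several cell types also differed. The sum of the corticotrope markers is mostly Pomc, with a median of 69243 CPM over all mice beside 118 CPM for Tbx19. It thus reads Pomc of the whole gland and does not separate corticotropes from other cells that hold Pomc. It lay between 36676 and 68297 CPM in female controls and between 70646 and 101599 CPM in PSD + restraint females. In males the sums were 11514 to 63673 CPM in controls and 66340 to 126323 CPM in PSD + restraint mice, so neither sex overlapped, by narrow margins in both. The share of all genes with such a separation was not counted. The neurointermediate lobe markers summed to 1234 to 1880 CPM in female controls and 1838 to 2954 CPM in PSD + restraint females. In males they summed to 381 to 1780 CPM and 1832 to 3377 CPM. Among the corticotrope markers Pomc, and among the neurointermediate lobe markers Pcsk2 and Oacyl, were called higher over all mice (0.99 ± 0.27, 0.996 ± 0.25 and 0.86 ± 0.24, SE). The other corticotrope and neurointermediate lobe markers were not called, and all of these markers were detected in all 28 mice. Macrophage markers summed to 102 to 108 CPM in female controls and 123 to 138 CPM in PSD + restraint females, with C1qa called higher in females (0.46 ± 0.12, adjusted p = 0.0476). In males they summed to 107 to 128 CPM and 113 to 124 CPM, and over all mice none of the 6 was called. Folliculostellate markers summed to 58.9 to 71.2 CPM in female controls and 72.2 to 82.9 CPM in PSD + restraint females, and to 54.2 to 64.9 CPM and 42.1 to 71.3 CPM in males, with none of the 4 called. After PSD alone, where neither Tsc22d3 nor Cdkn1a was called, corticotrope sums also lay above all controls of the same sex. They were 70383 to 164633 CPM in females and 65978.5 to 101783 CPM in males. The part of cell makeup in the 2 calls was not tested.

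Fkbp5, which encodes a co-chaperone of the receptor and is one of its most inducible targets (chromosome 17, 28399094 to 28517527), was not called in any treatment comparison. Its log2 fold change was negative in both sexes after PSD + restraint, at -0.19 ± 0.16 (SE) in females and -0.20 ± 0.07 in males, and -0.19 ± 0.10 over all mice (adjusted p = 0.229). The female value rested on control mouse 1, at 71.7 CPM, and without it was 0.03 ± 0.12. Male controls held 86.2, 94.4, 88.8 and 94.2 CPM and PSD + restraint males 73.0, 76.6 and 87.6 CPM, so that these overlapped only through mouse 3.

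Sgk1 (chromosome 10, 21882184 to 21999903) ranged from 13.3 to 27.9 CPM in females and from 17.9 to 32.5 CPM in males. Restraint gave 0.36 ± 0.18 (SE) in females and 0.12 ± 0.16 in males, and neither passed the test (adjusted p = 0.535 and 1). Female restrained mice averaged 23.7 ± 3.93 CPM (SD, n = 4) and female controls 18.5 ± 4.67 CPM (n = 4), with overlap.

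Zbtb16, a transcription repressor also called PLZF (chromosome 9, 48654297 to 48836222), and Klf9, a zinc finger factor (chromosome 19, 23141226 to 23168134), stood apart in the 2 restrained males. Zbtb16 was at 29.5 and 30.4 CPM in these, above all other males, whose highest value was 24.4 CPM. Klf9 was at 60.0 and 55.5 CPM in the same males, against at most 50.6 CPM in the others. The share of all genes in which these 2 males stood apart was not counted. In restrained females Zbtb16 was at 7.77, 15.7, 6.65 and 8.07 CPM, and 3 of these were the lowest of all females. The restraint difference of Zbtb16 was thus -0.58 ± 0.28 (SE) in females and 0.46 ± 0.19 in males, and that of Klf9 -0.12 ± 0.09 and 0.35 ± 0.09.

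The direct test of these opposite directions did not pass after adjustment. The sex difference of the restraint response was -1.04 ± 0.39 (SE) for Zbtb16 and -0.48 ± 0.13 for Klf9, with an adjusted p of 1 for both and unadjusted p-values, from the same edgeR model, of 0.013 and 0.0015. Among males, PSD within restraint gave -1.10 ± 0.20 for Zbtb16 and -0.47 ± 0.10 for Klf9 (adjusted p = 0.205 for both). DESeq2 called both, at shrunken values of -0.67 and -0.39, and the Zbtb16 contrast was also called without male PSD mouse 2 (-1.10, adjusted p = 0.0389). PSD + restraint gave -0.64 ± 0.18 for Zbtb16 in males (adjusted p = 0.0772), and it was called without control mouse 2 (-0.75, adjusted p = 0.0335), without PSD mouse 2 (-0.64, adjusted p = 0.0248) and with DESeq2 (-0.41, adjusted p = 0.0106). Only 2 males carry the restraint group, which limits these contrasts. Control mouse 2 held the lowest Zbtb16 value of the male controls, 16.3 CPM, so leaving it out enlarges the decrease by construction. PSD mouse 2 enters neither Zbtb16 contrast. Without it their values stayed the same and their SE fell to 0.15 and 0.13. No conclusion is drawn from the calls with a mouse left out. For the 3 treatments the test of a sex difference in response called 0% of genes with edgeR, with 804, 2038 and 1363 genes at unadjusted p-values below 0.05 for restraint, PSD and PSD + restraint.

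**Figure D2:**
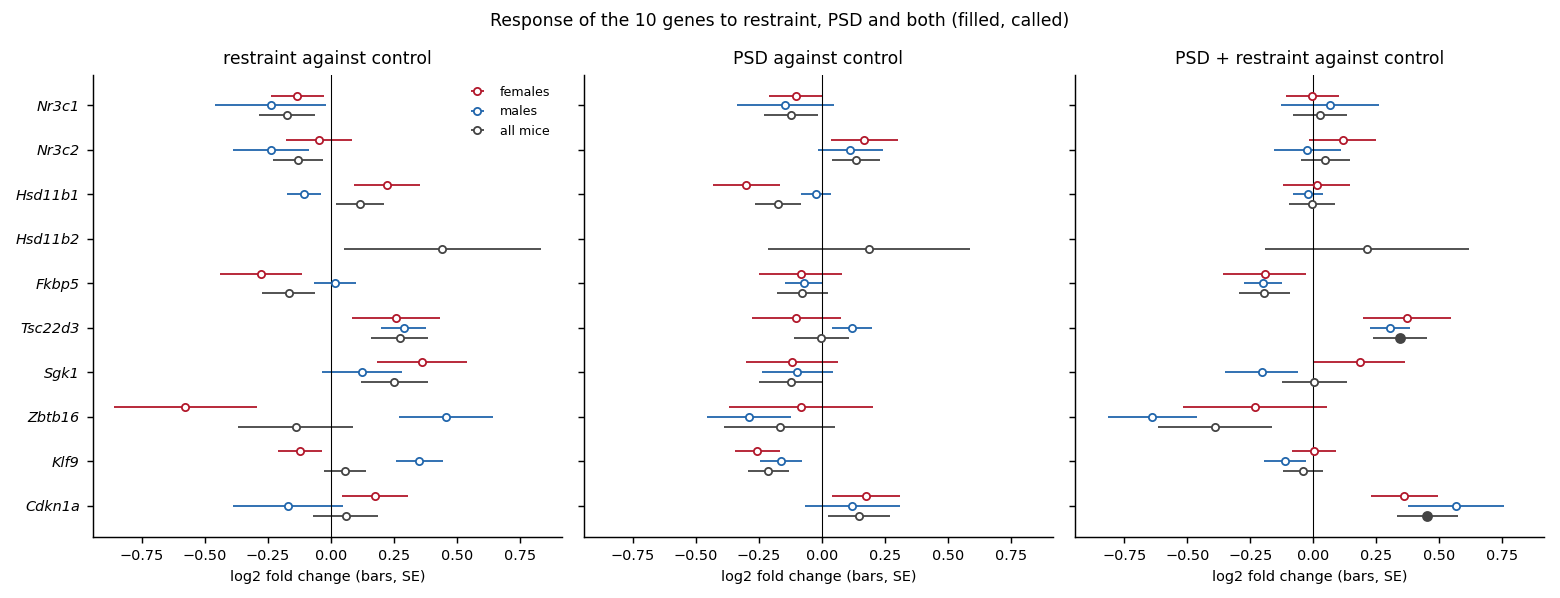
Log2 fold change of each gene against home cage controls, with its SE, for restraint, PSD and PSD + restraint, in females (red), males (blue) and all mice (grey); filled points are called. The filled points are Tsc22d3 at 0.34 and Cdkn1a at 0.45, both for PSD + restraint over all mice; Hsd11b2 was tested only over all mice.

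Female pituitaries held less RNA of several of these genes than male ones. Over all mice 4 of the 10 genes were called lower in females and none higher, beside 14.9% of all genes called in either direction and 7.79% called lower. The 4 were Fkbp5, Zbtb16, Nr3c2 and Nr3c1, and both receptors are thus among them. The median log2 difference of the 10 genes was -0.33, beside 0.01 for all genes tested.

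Fkbp5 showed the largest difference of the 10, at -0.93 ± 0.07 (SE, adjusted p = 1.44e-10), 1.91-fold between the sexes. Its females ranged from 35.3 to 71.7 CPM with a median of 45.3 CPM, and its males from 73.0 to 94.7 CPM with a median of 88.2 CPM. No female overlapped any male, a separation that 2.08% of the tested genes and no other of the 10 genes showed. The difference was called within each treatment, at -0.87 ± 0.14 in controls, -1.17 ± 0.16 in restrained mice, -0.88 ± 0.15 in PSD mice and -0.87 ± 0.15 in PSD + restraint mice. Within these treatments 10.7%, 8.02%, 8.96% and 4.1% of all genes were called.

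Nr3c2 was lower in females by a log2 difference of -0.47 ± 0.07 (SE, adjusted p = 8.65e-06). Females ranged from 20.3 to 34.8 CPM with a median of 25.8 CPM, and males from 27.4 to 45.1 CPM with a median of 37.5 CPM, with some overlap. It was called in controls, at -0.55 ± 0.14, and in PSD mice, at -0.49 ± 0.15. In restrained and PSD + restraint mice the differences were -0.37 ± 0.16 and -0.42 ± 0.15 and did not pass the test.

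Nr3c1 differed by -0.34 ± 0.08 (SE, adjusted p = 0.00127), close to the fold threshold. It fell short of that threshold without male control mouse 1 (-0.30), male PSD mouse 1 (-0.31) or male PSD + restraint mouse 3 (-0.30), and it was not called within any single treatment. In those 3 males Nr3c1 was at 121, 104 and 122 CPM, the highest values of all mice. Control mouse 1 is also the male with the lowest sums of corticotrope and neurointermediate lobe markers, whose part in this value was not tested.

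Zbtb16 differed by -0.68 ± 0.16 (SE, adjusted p = 0.00175). Within treatments it was -0.60 ± 0.25 in controls, -1.64 ± 0.29 in restrained mice, -0.39 ± 0.27 in PSD mice and -0.20 ± 0.28 in PSD + restraint mice, and only that in restrained mice was called (adjusted p = 0.000834). Klf9 was called in restrained mice too, at -0.43 ± 0.10 (adjusted p = 0.00908), though its difference over all mice was -0.05 ± 0.06.

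Sgk1 and Tsc22d3 were also lower in females, at -0.31 ± 0.09 and -0.23 ± 0.08 (SE, adjusted p = 0.0118 and 0.028), with fold changes under the threshold. Sgk1 passed that threshold too when 1 of 7 mice was left out (restrained female 2 or 4, restrained male 2, female control 1, PSD female 3, or PSD + restraint female 3 or male 3), at -0.32 to -0.35. Hsd11b1 at 0.02 ± 0.07 and Cdkn1a at -0.08 ± 0.09 did not pass the test, and neither did Hsd11b2 at -0.36 ± 0.29.

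Cell type markers differed between the sexes as well. Of 9 pituitary hormone markers, Prl was higher in females by 2.04 ± 0.10 (log2, SE) and 6 were lower, among them Gh at -1.05 ± 0.12, Cga at -0.69 ± 0.08 and Lhb at -0.72 ± 0.07. The corticotrope markers summed to a median of 72566 CPM (36676 to 164633) in females and 66160 CPM (11514 to 126323) in males, and none of the 4 was called. The 6 endothelial and 6 macrophage markers gave no call, while of 4 fibroblast markers Col1a2 was higher in females at 0.87 ± 0.10 and Dcn lower at -0.39 ± 0.06. Also higher in females were Oxt and Pax7 of the neurointermediate lobe markers, Sox9 of the folliculostellate markers and Camk2a and Slc17a7 of the forebrain markers, and Alas2 of the red cell markers was lower. The part of cell makeup in the sex difference of these genes was not tested.

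**Figure D3:**
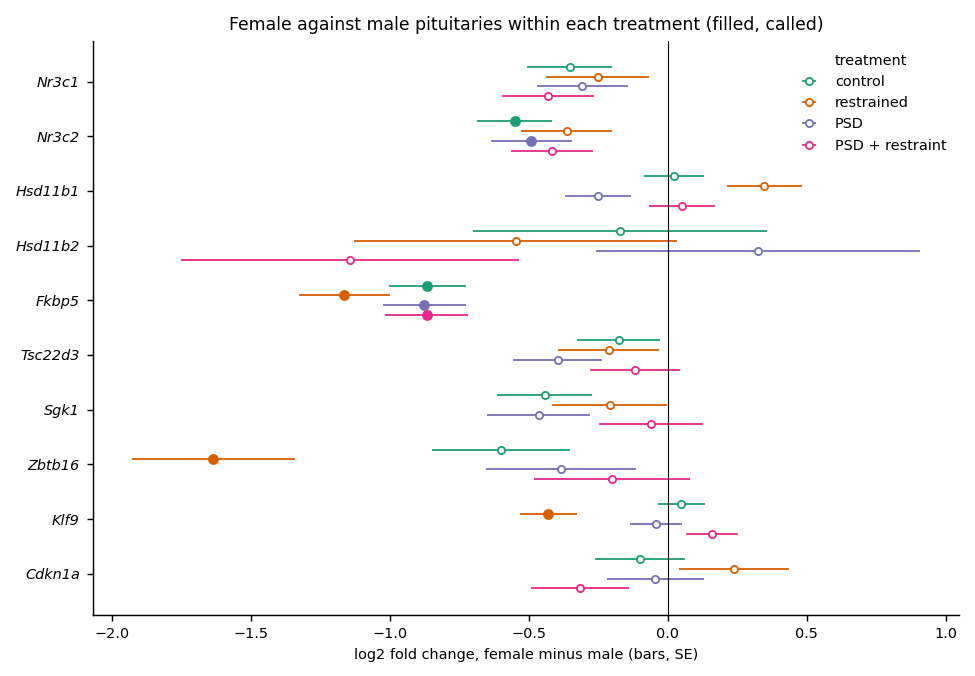
Log2 fold change of female against male pituitaries within each treatment, with its SE, where values below 0 are lower in females and filled points are called. Fkbp5 is filled in all 4 treatments, from -0.87 to -1.17, Nr3c2 in controls and PSD mice, and Zbtb16 and Klf9 in restrained mice.

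Other genes of the pathway are given here from fixed lists, and no test compared the lists with the 10 genes. Among 26 further genes that glucocorticoids induce, restraint called 1 higher in females, 4 in males and 6 over all mice, PSD none, and PSD + restraint 5, 9 and 7, with none called lower. Over all mice the largest after PSD + restraint were Errfi1, a feedback inhibitor of EGF receptors, at 1.94 ± 0.20 (log2, SE), and Per1, a clock gene, at 1.89 ± 0.23. Irs2, an adaptor of insulin signalling, stood at 0.9998 ± 0.15 and the clock gene Per2 at 0.57 ± 0.09. The median of the 26 was 0.17, beside 0.00 for all genes. Over all mice 1.14% of all genes were called after restraint and 5.46% after PSD + restraint, in either direction. Several of these genes, Per1 and Dusp1 among them, are also immediate-early genes that other signals induce.

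Among 10 tested genes known to be repressed by glucocorticoids, 5 were called higher after PSD + restraint over all mice and none lower, and among them were Nr4a1 at 4.41 ± 0.47, Ptgs2 at 2.63 ± 0.27, Il1b at 2.23 ± 0.20 and Pcsk1 at 0.57 ± 0.09 (log2, SE). Nr4a1 is an orphan receptor of the immediate-early kind, Ptgs2 and Il1b serve inflammation, and Pcsk1 cuts the precursor of adrenocorticotropic hormone. Of 12 p53 targets, Btg2 at 0.71 ± 0.20 and Gdf15 at 1.30 ± 0.39 were higher and Bbc3 at -0.51 ± 0.14 lower. Of all genes, 4.1% were called higher in this comparison and 5.46% in either direction.

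Genes that surround the receptors gave no call against controls. None of 10 chaperones, 11 coregulators, 4 genes of steroid handling and 7 mineralocorticoid receptor targets was called over all mice after restraint, PSD or PSD + restraint. H6pd of the steroid handling list was lower after PSD + restraint, at -0.28 ± 0.07 (adjusted p = 0.0142), and missed a call only by the fold threshold. Between the sexes, the corepressor Nrip1 was higher in females at 0.77 ± 0.10 (log2, SE), as were the drug and steroid exporters Abcb1b at 1.08 ± 0.13 and Abcb1a at 0.42 ± 0.14. The epithelial sodium channel subunit Scnn1b at -0.73 ± 0.12 and the potassium channel Kcnj1 at -1.24 ± 0.23 were lower. Of the 10 chaperones none was called between the sexes, but 7 had an adjusted p below 0.05 with a change under the fold threshold. Such small differences were common, since 8169 of all 18936 genes had unadjusted edgeR p-values below 0.05 between the sexes. The share of all genes at the adjusted level was not counted. Ipo13, Ppid, Stip1, Hsp90ab1, Hspa8 and Fkbp4 were higher in females, by 0.19 to 0.31 on the log2 scale, and Bag1 was lower, at -0.15 ± 0.04. Of the 26 further induced genes, 6 were lower in females, such as Lpin1 at -0.60 ± 0.08, and 3 were higher, such as Nfkbia at 0.50 ± 0.09. Among all genes 7.79% were called lower in females and 14.9% in either direction.

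**Figure D4:**
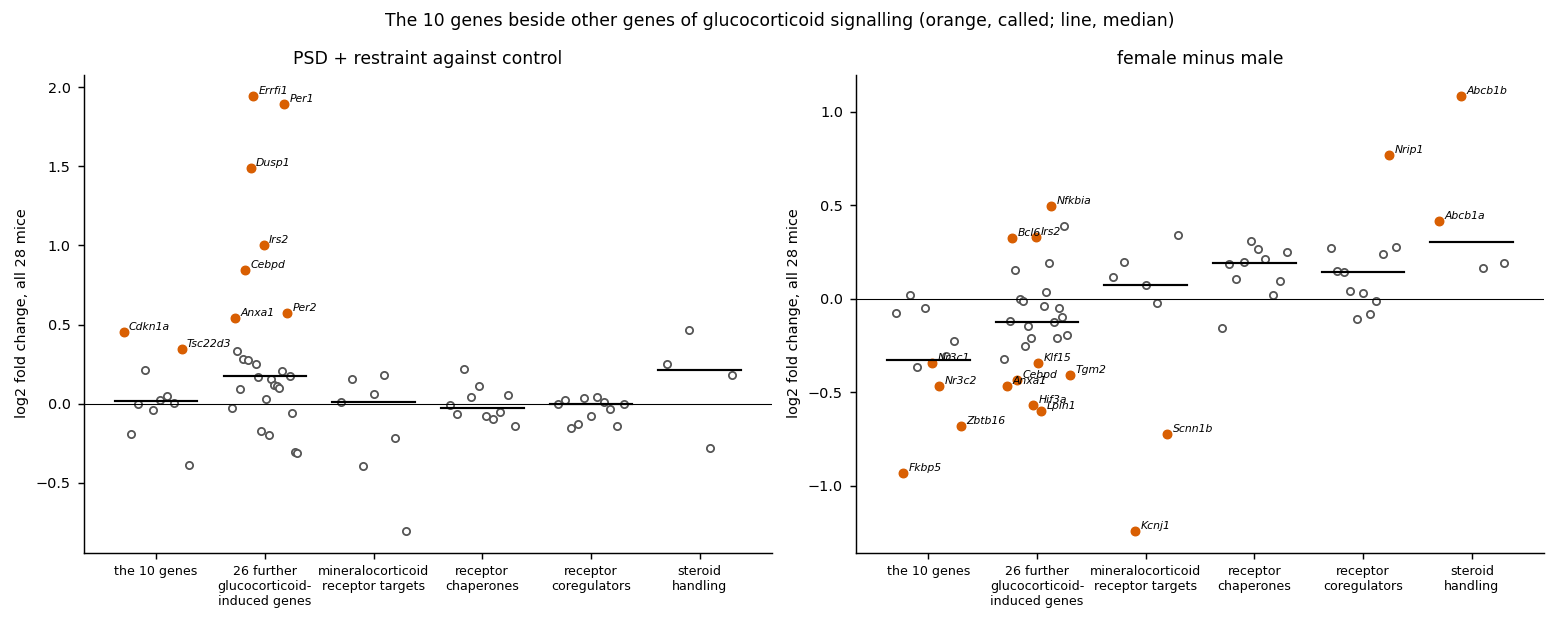
Log2 fold change over all 28 mice of the 10 genes and of 5 other lists, for PSD + restraint against control (left) and female minus male (right); each point is a gene, orange points are called and named, and lines are medians. On the left Errfi1 and Per1 stand near 1.9 while the 10 genes have a median of 0.02; on the right the 10 genes have a median of -0.33.

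The gene pattern most like that of Fkbp5 was sought by Pearson correlation of log2 CPM over the 28 mice, with each sex centred on its own mean. The closest of 18936 genes were Tab3 (r = 0.793), Ggt7 (0.776), Ino80d (0.732), Soga3 (0.707) and Rnf146 (0.694). Among the 10 genes the closest was Zbtb16 (r = 0.54), followed by Klf9 (0.346) and Nr3c2 (0.308), while Tsc22d3 was at 0.214, Sgk1 at 0.102, Cdkn1a at -0.0856 and Hsd11b1 at -0.242. The points are whole glands that share library and cell makeup, so these values are a description only.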

How the data were processed

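Pituitary RNA of 28 mice was measured by RNA-seq. Paired-end reads had been mapped by the authors with MapSplice (mm10) and assigned to UCSC gene models by HTSeq 0.9.1 in its intersection-nonempty mode. The deposited values used here are raw counts. A second table that the authors deposited, the same counts divided by 1 factor per mouse, was not used. Alignment and the counting of reads shared by overlapping genes are therefore already in the values.

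Counts were tested with edgeR 4.0.16 (quasi-likelihood, TMM, filterByExpr) in R 4.3.3, over all genes kept, with Benjamini-Hochberg adjustment: 18059 genes in females, 18271 in males, 18936 over all mice. The model held PSD, restraint and their interaction, with sex added over all mice; a model with 1 mean per group tested sex differences in response and, as an addition after the data were seen, the sexes within each treatment. A call needed an adjusted p no higher than 0.05 and a change of 1.25-fold or more. The numbers are the study's, which applied the fold to shrunken DESeq2 values and required a mean TPM of at least 1; here it applies to unshrunken edgeR values without a TPM filter. CPM used TMM factors over all genes. The p-values set a difference against the spread between mice, and tanks were not part of the model. DESeq2 1.42.0 and other settings were tried as alternatives, and the scripts were tested on simulated data.

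The 10 genes, the gene lists and the tests were chosen with earlier results of these data known. All 10 genes were named. Of every other list, up to 4 called genes with the smallest adjusted p were named, or the counts only. The chaperones and H6pd, all under the fold threshold, were named after their values were seen. Dusp1 was named from the list itself. Positions are from GENCODE M21 (GRCm38), promoters from RefSeq (GRCm38.p6); Nr3c1, Hsd11b2 and Zbtb16 had no window there.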

Additional observations from a re-analysis of the deposited data

Results flagged for a closer look

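In 50 groups of 4 mice and 1 gene, the highest or lowest mouse was set against the others by Dixon's ratio of its gap to the range. Its critical value was exceeded in 4 of them, where chance gives about 1 in 20. Nr3c1 in PSD + restraint females was at 69.9 CPM in mouse 4, where the next mouse had 73.2 CPM. In PSD females, Tsc22d3 was at 52.2 CPM in mouse 2, with the next at 45.0 CPM. Zbtb16 was at 15.7 CPM in restrained female 2, where the next mouse had 8.07 CPM, and at 8.55 CPM in PSD + restraint female 4, where the next had 13.04 CPM. Female control mouse 1 did not exceed the ratio for any of the genes.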

How the results depend on the processing

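Of 5868 comparisons of 208 gene results with an alternative, 5816 kept direction and side of the threshold, 24 lost a call, 23 gained one and 5 turned direction, where direction was read only for differences above their SE. The counts of called genes moved as follows. After PSD + restraint over all mice, 2 became 1 with DESeq2 (Tsc22d3 at 0.29) and ran from 1 to 2 with a mouse left out. In males PSD + restraint went from 0 to 1 with DESeq2 (Zbtb16 at -0.41) and PSD within restraint from 0 to 2. Restraint within PSD in females went from 0 to 1 when only the groups compared were fitted. With a mouse left out, counts ran from 0 to 1 for restraint in females and over all mice, restraint within PSD in females and over all mice, PSD + restraint in females and in males, and PSD within restraint in males. The 4 genes called between the sexes became 2 within controls, 3 within restrained mice, 2 within PSD mice, 1 within PSD + restraint mice and 6 without a fold threshold, and ran from 3 to 5 with a mouse left out. Mice left out took Fkbp5 after PSD + restraint in females from -0.33 to 0.0253, Hsd11b1 over all mice from -0.0255 to 0.17 for restraint and from -0.18 to 0.0218 for PSD within restraint, and the Sgk1 interaction in males from -0.47 to 0.0641. The Hsd11b2 sex difference was 0.32 within PSD mice. The causes were not tested. Same-numbered mice of different groups are different animals and did not deviate together (median r -0.0179 in females over 24 pairs, -0.0692 in males over 15), and a replicate block changed 0 of 208 results (Tsc22d3 after PSD + restraint over all mice 0.34). Groups of 2 to 4 mice and, for Hsd11b2, at most 11 counts limit what could be seen.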
